A study of Homo sapiens with 4 samples.

Results

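The collagen and lysyl oxidase genes were examined for chromatin accessibility in A375, an established line of human melanoma cells, by ATAC-seq (open DNA is cut and tagged by the Tn5 transposase). For 48 h the cells were given either octanoate at 1 mM, a medium-chain fatty acid, or isopropanol as the vehicle, and each group has 2 libraries, 4 together. Both groups were the same unmodified line in the same medium, and the labels do not say whether the libraries of a group came from separate cultures, so p-values may measure technical spread only. Members were the 49 RefSeq protein-coding genes of GRCh38 with a numbered collagen symbol or the symbol LOX or LOXL1 to LOXL4. They comprised 44 collagen and 5 lysyl oxidase genes. Regions of the authors' deposited table that overlapped a gene span, extended by 10 kb on both sides, were taken, which gave 452 of 125986 regions. At least 1 region was listed for 48 of the 49 genes. None was listed at COL5A3, which encodes a minor fibril-forming chain.

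Collagens are triple-helical proteins of the extracellular matrix. Fibril-forming chains such as those of types I, II, III and V assemble into banded fibres, type IV chains form the sheet-like network of basement membranes, and other types decorate fibrils, form beaded filaments or cross the cell membrane. Lysyl oxidases are copper-dependent enzymes that oxidise lysine residues of collagen and elastin, which lets neighbouring chains form covalent cross-links. In melanoma these genes are known for the matrix through which tumour cells move and for the stiffness of that matrix. ATAC-seq reports whether DNA near a gene is open, and not how much RNA or protein is made.

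The 6 collagen IV genes lie as head-to-head pairs, in which both genes of a pair are read outward from 1 short stretch. The stretches between paired genes are shown because an accessible region overlapped each of them. The bases before the starts of COL5A1 and LOXL4 are added. All 13 regions of COL5A1 had a positive fold change, as had all 5 of COL1A2. LOXL4 held the deepest region, where deepest means the highest mean of normalized reads, whatever the width. Sequences are from RefSeq, build GRCh38.p14, 5′ to 3′ on the strand given. Capitals mark GC boxes (GGGCGG) and CCAAT boxes (CCAAT) on either strand.
COL4A1 to COL4A2, chr13:110307158-110307283, plus strand, all 126 bases between both genes: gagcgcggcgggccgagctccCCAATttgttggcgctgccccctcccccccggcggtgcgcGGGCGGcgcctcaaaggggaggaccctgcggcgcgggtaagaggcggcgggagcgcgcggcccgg
COL4A4 to COL4A3, chr2:227164489-227164623, plus strand, all 135 bases between both genes: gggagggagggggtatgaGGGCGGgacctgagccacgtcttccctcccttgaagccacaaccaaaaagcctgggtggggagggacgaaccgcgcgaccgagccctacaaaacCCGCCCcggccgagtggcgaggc
COL4A5, chrX:108439588-108439837, plus strand, 250 of the 379 bases between COL4A6 and COL4A5: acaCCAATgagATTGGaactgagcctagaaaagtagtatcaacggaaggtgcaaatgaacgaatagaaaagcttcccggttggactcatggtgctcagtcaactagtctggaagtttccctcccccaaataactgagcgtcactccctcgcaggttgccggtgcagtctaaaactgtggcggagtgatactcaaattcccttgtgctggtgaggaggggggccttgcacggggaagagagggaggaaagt
COL5A1, chr9:134641553-134641802, plus strand, 250 bases before the start: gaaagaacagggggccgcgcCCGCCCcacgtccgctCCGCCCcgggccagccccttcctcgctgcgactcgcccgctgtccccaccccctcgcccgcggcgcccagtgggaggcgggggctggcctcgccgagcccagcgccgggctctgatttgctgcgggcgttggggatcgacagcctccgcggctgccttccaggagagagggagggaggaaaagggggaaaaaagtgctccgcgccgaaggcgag
LOXL4, chr10:98268195-98268444, minus strand, 250 bases before the start: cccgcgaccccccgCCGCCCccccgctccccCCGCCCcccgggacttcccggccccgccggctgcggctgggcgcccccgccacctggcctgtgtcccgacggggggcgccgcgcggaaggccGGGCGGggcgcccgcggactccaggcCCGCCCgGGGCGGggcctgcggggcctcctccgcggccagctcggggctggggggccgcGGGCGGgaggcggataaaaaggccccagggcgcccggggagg
The 5 stretches ranged from 51.2% G and C before COL4A5 to 86.4% before LOXL4. The LOXL4 stretch held 6 GC boxes and no CCAAT box, and the COL4A5 stretch held 2 CCAAT boxes and no GC box.

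No collagen or lysyl oxidase region changed by the authors' test. Of the 452 regions, 30 reached 63.8 normalized reads on average and so were covered by the authors' adjusted p; these are called tested regions, and they lay at 20 of the 49 genes. Of these 30, 0 had, per the authors' deposited table, an adjusted p under 0.05 (DESeq2 Wald test, Benjamini-Hochberg over all 11185 tested regions), against 1.02% of all tested regions. The smallest adjusted p per the authors' deposited table among them was 0.132, in COL4A2. At an unadjusted p under 0.05, 7 were higher after octanoate and 0 were lower per the authors' deposited table, where 14.8% of all tested regions were higher and 0.107% lower. No other tool was run, because the file gives 0 columns per library. The spread between replicates therefore enters only through the authors' standard errors.

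Fold changes of the members lay near those of the table as a whole. The median log2 fold change, octanoate over vehicle, was 0.19 over the 452 regions and 0.23 over all nuclear regions per the authors' deposited table. Over tested regions it was 0.19 both for the 30 members and for all 11185 per the authors' deposited table. Of the 452 regions 301 had a log2 fold change above 0 per the authors' deposited table, or 66.6% against 72.1% of all nuclear regions. Of the 30 tested regions 24 were above 0, or 80.0% against 85.7% of all tested regions. Fold changes were thus shifted upward across the table, and 15 of the 30 lay above the median of all tested regions. After that median was subtracted, the smallest unadjusted p of the 30 was 0.0482 and the smallest adjusted p was 1, so 0 of the 30 passed, against 0.0536% of all tested regions. In the plot of fold change against mean signal the members lie within the cloud of all nuclear regions.

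**Figure D1:**
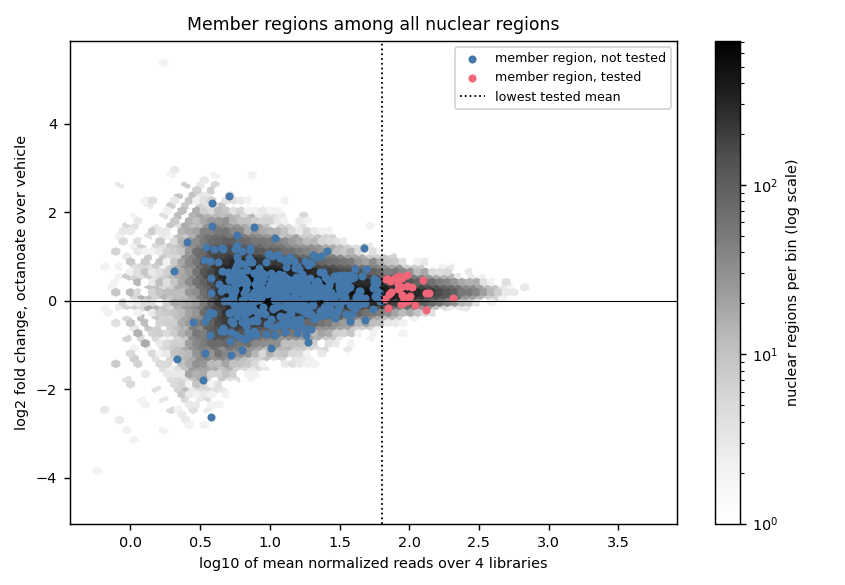
Deposited log2 fold change (octanoate over vehicle) against the log10 of the mean normalized reads over 4 libraries. Grey shading counts all nuclear regions per bin on a log scale; blue points are the 422 member regions that were not tested and red points the 30 that were, at or above the dotted line at a mean of 63.8.

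The deposited errors bound what could have been seen. Standard errors of the 30 tested regions ran from 0.15 to 0.25 on the log2 scale with a median of 0.22. The weakest region with an adjusted p under 0.05 anywhere in the authors' deposited table had a Wald statistic of 3.48, which at the median error corresponds to a log2 fold change of 0.77, or 1.71-fold. Intervals of 95%, taken as the log2 fold change plus or minus 1.96 standard errors, stayed under a doubling in 27 of 30 regions and above a halving in all 30. The depth of each library is unknown.

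The 6 basement membrane collagen genes held 54 regions, 8 of them tested, with a median log2 fold change of 0.26 per the authors' deposited table. Over the deepest region of each gene alone, 5 regions, it was -0.040. COL4A2, which encodes the partner of the COL4A1 chain in the type IV trimer found in most basement membranes, had 16 regions, 7 of them tested, more than any other member. The tested region with the smallest p lay within the gene span at chromosome 13, 110396500 to 110397978, 90.0 kb downstream of the start. In the authors' deposited table it had a mean of 96.1 normalized reads, and the deposited mean and fold change imply 76.7 in vehicle and 115 in octanoate cells. Its log2 fold change per the authors' deposited table was 0.59 with a standard error of 0.21 (p 0.00583, adjusted p 0.132).

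Further tested regions stood close by within COL4A2. At 102 kb, 105 kb and 112 kb from the start, log2 fold changes were 0.37, 0.50 and 0.49 per the authors' deposited table, with standard errors of 0.23, 0.25 and 0.24 and adjusted p of 0.444, 0.334 and 0.321. A region 12.8 kb from the start stood at 0.32 (standard error 0.21). The deepest COL4A2 region, with a mean of 133 and 193 kb from the start (110499308 to 110500552), stood at 0.19 with a standard error of 0.19. The first 5 of these 6 tested regions lay above the median of all tested regions and the deepest lay close to it, and none passed the threshold. All COL4A2 regions were at least 3.84 Mb from the outermost listed region of chromosome 13.

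The shared start of COL4A1 and COL4A2 lay on the other side of 0. One region of 3062 bp (chromosome 13, 110305917 to 110308978) covered the 126 bases between the genes and both starts. Its mean was 131 normalized reads, with 140 implied in vehicle and 122 in octanoate cells. The log2 fold change per the authors' deposited table was -0.20 (standard error 0.20, adjusted p 0.658), the lowest fold change of the 30 tested regions. Its 95% interval, -0.59 to 0.18, ended just below the median of all tested regions. COL4A1 had 3 other regions, none of them tested. The difference between this start and the COL4A2 regions downstream was not tested, since it cannot be set against values of single libraries.

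The other collagen IV starts were weaker. The region over the 135 bases between COL4A4 and COL4A3, whose chains build the basement membrane of the kidney glomerulus with that of COL4A5, had a mean of 48.0 and a log2 fold change of -0.040 (standard error 0.30) per the authors' deposited table. Between COL4A6 and COL4A5 on chromosome X, the region from 108439518 to 108440343 had a mean of 17.8 and stood at -0.64 (standard error 0.49) per the authors' deposited table. Neither region reached the mean needed for testing. The 3 regions at COL4A5 were all below 0 (-0.64 to -0.25), as were 9 of 13 at COL4A6, counting the 2 regions both genes share. Per kilobase, the start regions held 42.7 (COL4A1 and COL4A2), 28.9 (COL4A3 and COL4A4) and 21.6 normalized reads (COL4A5 and COL4A6), a range of levels over pairs of genes that share their layout.

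**Figure D2:**
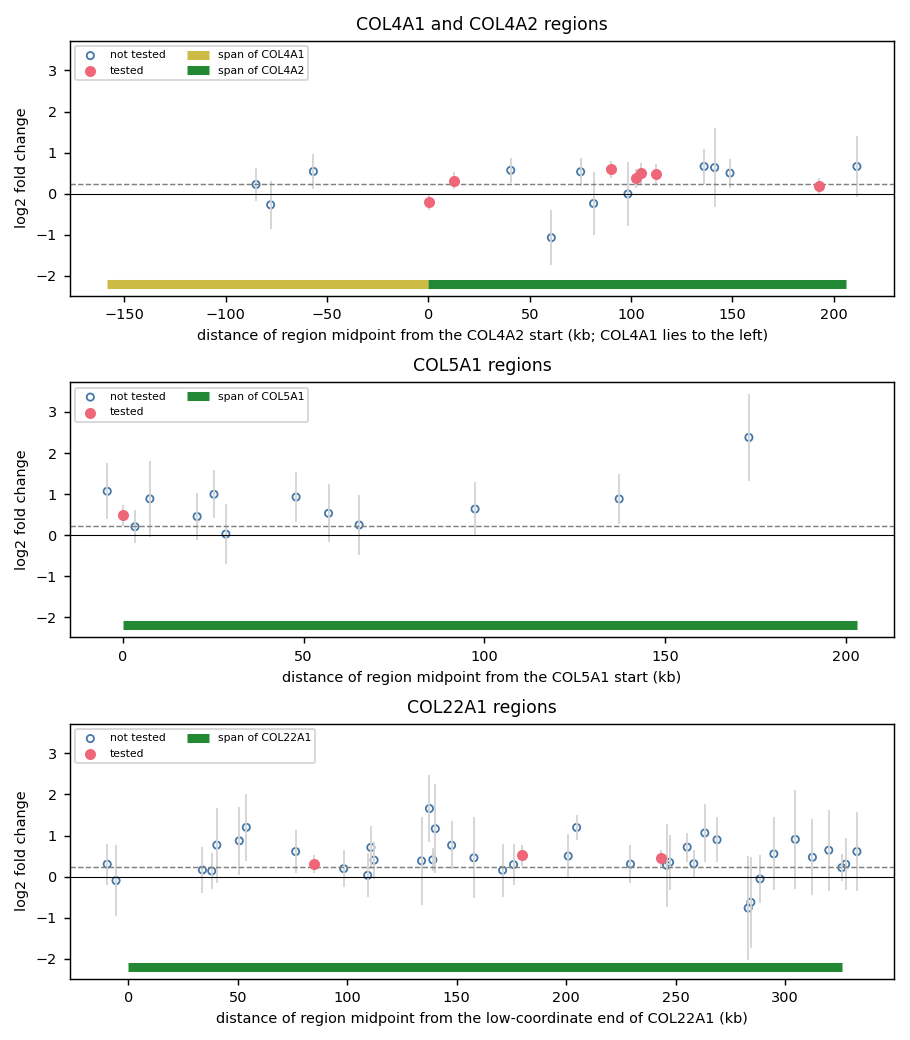
Deposited log2 fold change of each region (vertical axis, bars are 1 standard error) along COL4A1 and COL4A2, COL5A1 and COL22A1, against distance in kb from the COL4A2 start, the COL5A1 start and the low-coordinate end of COL22A1. Red points were tested, open blue points were not, the dashed line is the median of all nuclear regions (0.23), and coloured bars at the bottom are gene spans; the COL4A1 and COL4A2 start lies below 0 and all 13 COL5A1 regions above it.

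The 11 fibril-forming collagen genes held 100 regions, at a median log2 fold change of 0.065 per the authors' deposited table, and only 4 of these regions were tested. COL5A1, whose chain controls the diameter of type I collagen fibrils, had the highest median among genes with at least 5 regions. All 13 of its regions were above 0, from 0.027 to 2.38 with a median of 0.64, per the authors' deposited table. The region at its start (chromosome 9, 134641040 to 134642835) had a mean of 68.4, with 57.0 implied in vehicle and 79.7 in octanoate cells. It stood at 0.48 (standard error 0.25, adjusted p 0.350) per the authors' deposited table. The other 12 regions were weak, with means of 5.07 to 27.3, and the highest fold change belonged to the weakest of them.

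COL5A2 encodes the partner chain of type V collagen. Its 27 regions, the second highest number of any member, ranged from -1.18 to 0.72 with a median of -0.011 per the authors' deposited table. A tested region at one end of its span (chromosome 2, 189440670 to 189441987) stood at -0.011 (standard error 0.21) and also lay within 1 kb of an end of WDR75. The region that COL5A2 shared with COL3A1 (chromosome 2, 189022100 to 189022877) had a mean of 19.9 and stood at -0.31 with a standard error of 0.47. COL11A1, a chain of cartilage fibrils, was among the 3 lowest genes with at least 5 regions, with a median of -0.18 over 12 regions, 5 of them above 0. COL24A1 had a median of -0.11 over 13 regions.

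The main fibril chains of connective tissue had no tested region. COL1A1 had 4 regions with means of 16.5 to 54.5 and a median log2 fold change of 0.33 per the authors' deposited table. COL1A2 had 5, all above 0, with a median of 0.082, and COL3A1 had 4 with a median of 0.17. COL2A1, the chain of cartilage fibrils, had 4 regions, all below 0 (-0.73 to -0.059), and its tested region (chromosome 12, 48000889 to 48003047) stood at -0.10 with a standard error of 0.20. COL27A1 had 1 tested region, at a start of the gene, at 0.039 (standard error 0.25).

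**Figure D3:**
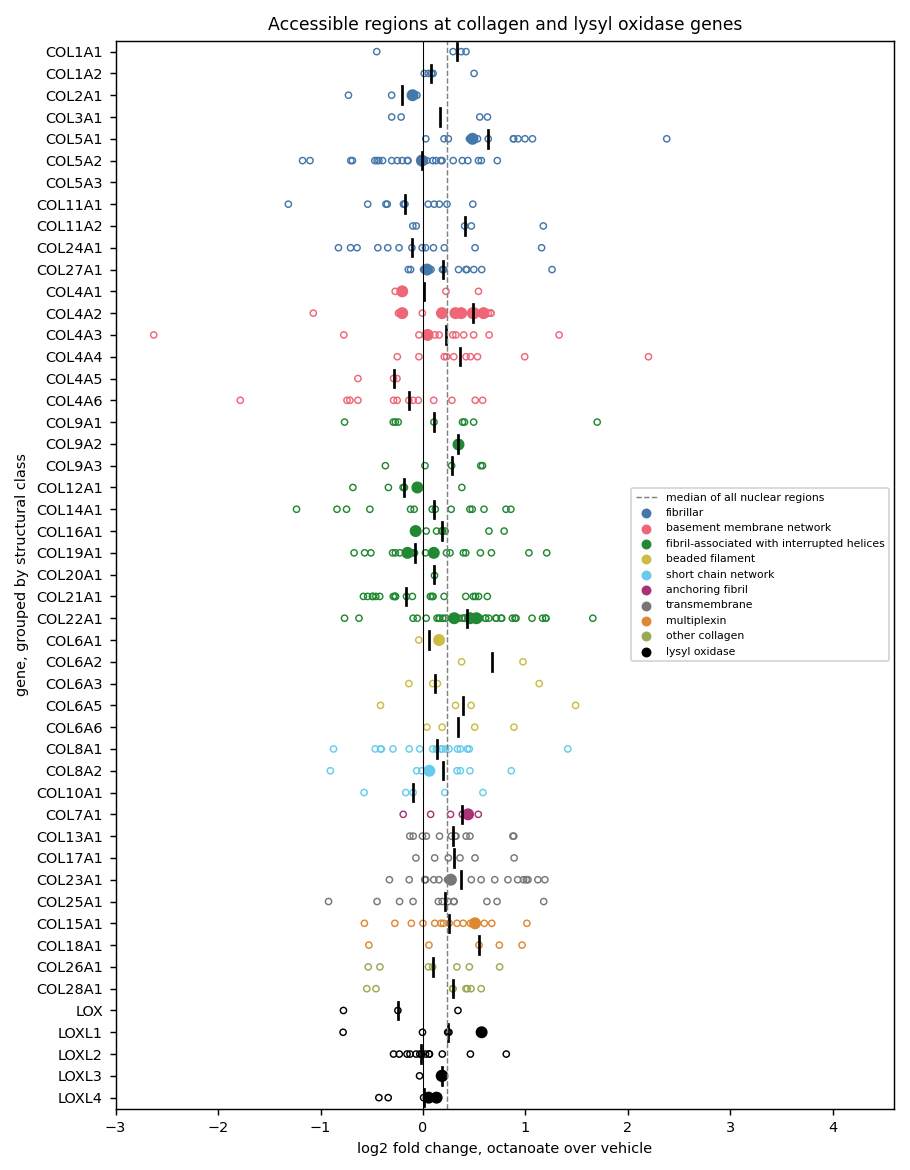
Deposited log2 fold change (horizontal axis) of every region at each of the 49 genes, grouped and coloured by structural class. Filled points are tested regions, open points untested ones, black ticks the median of each gene, and the dashed line the median of all nuclear regions. COL5A1, COL1A2, COL6A6, COL6A2 and the single-region genes COL9A2 and COL20A1 lie wholly above 0. COL2A1 and COL4A5 lie wholly below, and COL5A3 is empty.

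Collagens that bind to the surface of fibrils held 127 regions over 10 genes, with a median log2 fold change of 0.22 per the authors' deposited table. Over the deepest region of each gene alone, 10 regions, the class median was 0.097. COL22A1, a collagen of tissue junctions such as that of muscle and tendon, had 42 regions, the largest number of any member. At 12.1 regions per 100 kb its density stood at percentile 88.9 of all protein-coding genes, below COL8A2 (95.9), COL7A1 (92.7) and LOXL4 (89.5). Of its 42 regions 38 were above 0, with a median of 0.43, per the authors' deposited table. The 3 tested ones lay within the span at chromosome 8, 138830695 to 138832823, 138767549 to 138768287 and 138672507 to 138673435. They stood at 0.46, 0.52 and 0.30 with standard errors of 0.19, 0.25 and 0.22 and adjusted p of 0.207, 0.303 and 0.538 per the authors' deposited table. The deepest of them had a mean of 125, with 105 implied in vehicle and 144 in octanoate cells.

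The smallest unadjusted p of any member belonged to an untested COL22A1 region, chosen here after its value was seen. It lay on chromosome 8 from 138792391 to 138793690, with a mean of 47.3, 28.7 implied in vehicle and 65.8 in octanoate cells. Its log2 fold change per the authors' deposited table was 1.20 with a standard error of 0.31 (p 0.000109). It was below the mean that the authors' adjustment covered, and adjusted over all regions it did not pass. Among the 422 untested member regions, 10 were higher and 1 lower at an unadjusted p under 0.05 per the authors' deposited table, where 2.48% of untested nuclear regions were higher and 0.186% lower.

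Of the other 9 genes of this class, 3 had medians below 0. COL21A1 (21 regions) and COL12A1 (6 regions), both found on fibril surfaces, were among the 3 lowest genes with at least 5 regions, with medians of -0.16 and -0.19 per the authors' deposited table. The start region of COL12A1 had a mean of 90.3 and stood at -0.055 with a standard error of 0.22. COL19A1 had 21 regions with a median of -0.083. Its start region stood at -0.15 (standard error 0.25) and a region 51.7 kb downstream, with a mean of 101, at 0.10 (standard error 0.21). The region that COL19A1 shared with COL9A1, a chain of cartilage type IX collagen, had a mean of 3.94 and stood at -0.27 with a standard error of 1.16. COL9A3 (5 regions) and COL16A1 (8 regions) had medians of 0.28 and 0.19. COL9A2, another type IX chain, had a single region, within 1 kb of its start but not over it, with a mean of 96.1. This COL9A2 region stood at 0.34 (standard error 0.22, adjusted p 0.457).

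The remaining collagen classes had 1 tested region each or none. Beaded-filament type VI genes had 16 regions with a median of 0.25 per the authors' deposited table, short-chain network genes 32 with 0.13, and transmembrane genes 50 with 0.27. Over the deepest region of each gene alone, these medians were 0.47, 0.095 and 0.13 in that order. Multiplexins, which carry antiangiogenic fragments at their ends, had 20 regions with a median of 0.29. A tested region within COL15A1 (chromosome 9, 98989152 to 98990171) had a mean of 88.1 and a log2 fold change of 0.51 with a standard error of 0.22 (adjusted p 0.242) per the authors' deposited table. COL18A1, the source of endostatin, was among the 3 highest genes with at least 5 regions, with a median of 0.55 over 5 regions, all untested. COL23A1, a membrane-bound collagen, had 20 regions, 18 of them above 0, with a median of 0.37. COL7A1, the anchoring fibril of skin, had 7 regions with a median of 0.38. Its tested region (chromosome 3, 48556591 to 48557557) lay in the flank, within the span of PFKFB4, and stood at 0.44 with a standard error of 0.24.

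Several tested regions belonged to members only through the 10 kb flanks and lay at ends of neighbouring genes. They stood at -0.072 beside COL16A1 (at PEF1), 0.062 beside COL8A2 (at ADPRS and TEKT2), 0.045 beside COL4A3 (at MFF) and 0.27 beside COL23A1 (at PHYKPL), per the authors' deposited table. Another, in the flank of COL6A1 and at no gene end, stood at 0.16. Their standard errors were 0.22 to 0.25, so none stood more than 1.96 standard errors from 0.

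The 30 regions of the lysyl oxidase genes had a median log2 fold change of 0.015 per the authors' deposited table, with 16 above 0 and 14 below. The 5 tested regions were all above 0, as were 85.7% of all tested regions. LOXL4 held the deepest region of all members, 4318 bp over its start (chromosome 10, 98265844 to 98270161), with a mean of 206 normalized reads. Implied values of 202 in vehicle and 210 in octanoate cells differed by a log2 fold change of 0.055 with a standard error of 0.15. Its 95% interval ran from -0.24 to 0.36. Per kilobase this LOXL4 region held 47.7 normalized reads, against 107 in the COL4A2 region that was highest by that measure. A region at the other end of LOXL4 stood at 0.13 (standard error 0.22).

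LOXL1, which acts in elastic fibre assembly, had the second smallest p of the tested members. That region lay in its flank at chromosome 15, 73956542 to 73957623, 30.6 kb from the start. It had a mean of 83.8, with 67.4 implied in vehicle and 100 in octanoate cells, and a log2 fold change of 0.57 with a standard error of 0.23 (p 0.0133, adjusted p 0.191) per the authors' deposited table. The LOXL1 start itself had a weak region with a mean of 7.80 at -0.78 (standard error 0.80). LOXL3 had tested regions at its start (0.19, standard error 0.25), inside the overlapping span of DOK1, and in its flank (0.18, standard error 0.18), at ends of AUP1 and HTRA2.

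LOX and LOXL2, both known for collagen cross-linking in tumours, had no tested region. LOX had 3 regions, at -0.25, 0.34 and -0.78 per the authors' deposited table, with standard errors of 0.39, 0.54 and 0.49. The third lay over its start, with a mean of 18.1, and within 1 kb of an end of SRFBP1. LOXL2 had 13 regions with means of 5.80 to 48.5 and log2 fold changes of -0.29 to 0.81, median -0.015. In LOX only the third region, over its start, had a fold change larger in size than its standard error. The second LOX region, at 0.34, also lay within 1 kb of a listed start.

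**Figure D4:**
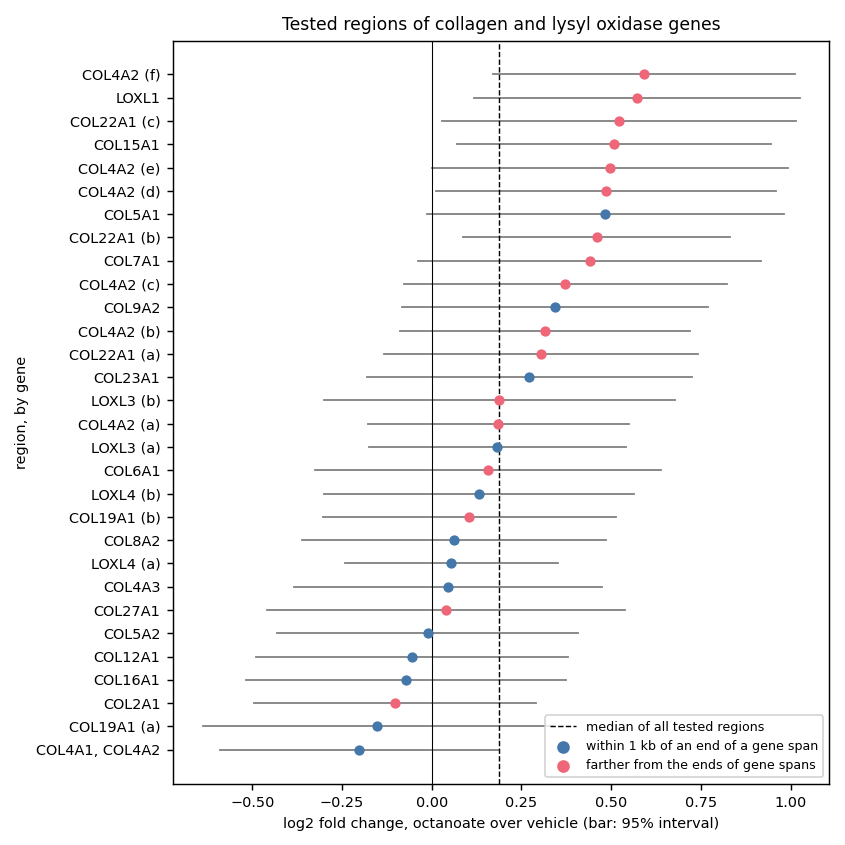
Deposited log2 fold change of the 30 tested regions (points) with 95% intervals (bars, 1.96 standard errors), ordered by fold change; letters separate regions of 1 gene. Blue points lie within 1 kb of an end of a protein-coding gene span and red points farther away, the dashed line is the median of all tested regions (0.19), and the top 6 are red.

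Fold changes were also set against position along genes. Among the 30 tested regions, 13 lay within 1 kb of an end of a protein-coding gene, the member's own or a neighbour's, and had a median log2 fold change of 0.055. The 17 farther away had a median of 0.37, but 9 of them lay at COL4A2 (6) or COL22A1 (3), and the other 8 had a median of 0.17. Per the authors' deposited table, all tested regions at gene ends had 0.16 and those farther away 0.24. All 7 tested members with an unadjusted p under 0.05 were among the 17, 5 of them at COL4A2 or COL22A1. Over the whole table, 21.9% of tested regions away from gene ends were higher at that level, against 9.15% at gene ends. Regions at COL27A1 and LOXL3 starts count among the 17, because these starts lie inside the gene span. Strand and start were taken from a table of RefSeq promoters, in which 36 members were matched, and 31 of these had a region within 1 kb of a start. These 34 start regions had a median of 0.047, with 19 above 0. The difference by position was not tested.

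Distance to chromosome ends was examined in the same way. Within 5 Mb of the outermost listed region of their chromosome lay 71 member regions, at 10 genes on 6 chromosomes. Their median log2 fold change per the authors' deposited table was 0.47 and 84.5% were above 0, against 0.33 and 79.8% for all nuclear regions within that distance. Of the 71 regions, 20 lay at COL23A1, 16 at COL4A2 and 13 at COL5A1, with medians of 0.37, 0.49 and 0.64. The 381 other member regions had 0.16 and other nuclear regions 0.22. The 10 genes were COL4A1, COL4A2, COL5A1, COL6A1, COL6A2, COL6A3, COL9A3, COL18A1, COL20A1 and COL23A1, and all 10 had medians above 0, as did 36 of the 48 members with a region. Among the 10, COL4A1 stood at 0.011 with 2 of 4 regions above 0, COL6A1 at 0.058 with 1 of 2, and COL20A1 had a single region. The 10 genes included the 3 genes with the highest medians among those with at least 5 regions. COL22A1, whose tested regions lay 6.22 to 6.38 Mb from the outermost region of chromosome 8, was not among them. The part of chromosomal position in the values of single genes was not tested.

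**Figure D5:**
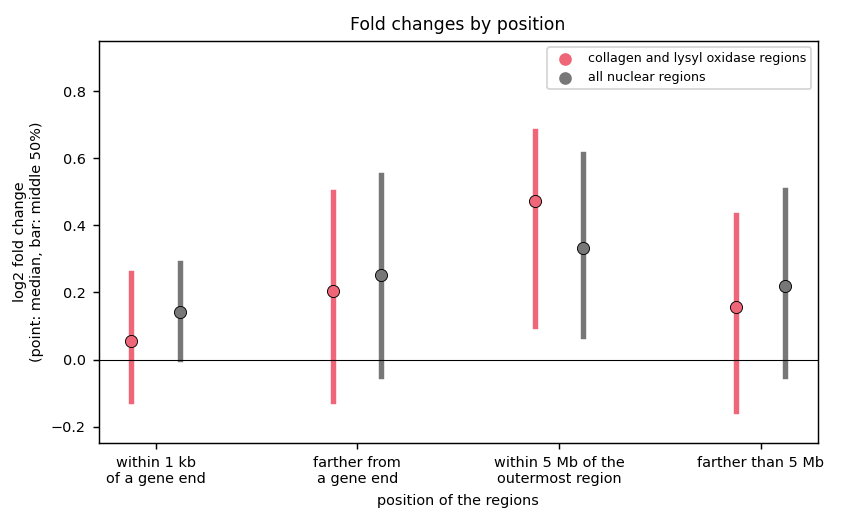
Median deposited log2 fold change (points) and middle 50% (bars) of member regions (red) and of all nuclear regions (grey), by distance to the ends of gene spans and to the outermost listed region of the chromosome. Member medians were 0.056 and 0.21 within and beyond 1 kb of a gene end, and 0.47 and 0.16 within and beyond 5 Mb of the outermost region.

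Simple motifs were counted at the members' starts. The promoter table used here held 51 windows of 300 bases for the 36 matched genes, some of them overlapping, with 250 bases before and 50 after the start. GC boxes (GGGCGG, either strand) were in 27 of the 51 and in 56.3% of 22199 windows of all protein-coding genes. CCAAT boxes were in 15 of 51 against 34.7%, TATA boxes (TATAAA) in 8 against 9.47%, and TEAD sites (GGAATG) in 4 against 12.2%. The AP-1 site TGANTCA was in 1, at COL10A1, against 6.15%. A listed region overlapped 34 of the 51 windows, whose median G and C content was 63.7%, and the other 17 had 64.7%. These are matches of letters only.

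Genes that build, process and remove collagen were set beside the members. A list of 48 such genes had 287 regions, 33 of them tested, and shared 0 regions with the members. Of these 33, 0 had, per the authors' deposited table, an adjusted p under 0.05, against 1.02% of all tested regions. At an unadjusted p under 0.05, 2 were higher and 0 lower, against 14.8% and 0.107% of all tested regions. The list had a median log2 fold change of 0.17 over all its regions and 0.094 over tested ones per the authors' deposited table. Of the 33 tested regions 26 were above 0, or 78.8%, against 85.7% of all tested regions. Hydroxylases and glycosyltransferases, which modify collagen chains before they fold, had 11 tested regions, all above 0. The smallest p in this group was at PLOD1, a lysyl hydroxylase, with a mean of 173; its region stood at 0.51 (standard error 0.17, adjusted p 0.0932) per the authors' deposited table.

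At SPARC, a collagen-binding matrix protein, the region with the smallest p stood at 0.33 (standard error 0.16, adjusted p 0.292) per the authors' deposited table. At MMP2, a gelatinase, it stood at -0.43 (standard error 0.22, adjusted p 0.340). For propeptide cleavage it was 0.36 at TLL2, for folding and export 0.27 at PPIB, and for receptors -0.19 at DDR2. Medians over all regions of the groups ran from -0.00091 for receptors to 0.26 for propeptide cleavage.

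The label of the cells was checked at markers. A region lay within 1 kb of a gene end for 5 of 7 melanocytic markers, deepest at MITF with a mean of 168, and no region was listed there for TYR or TYRP1. Regions were also listed for 3 of 4 fibroblast, 2 of 4 epithelial and 3 of 3 leukocyte markers, with means up to 70.1. Presence of a region at gene ends therefore did not separate the cell types.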

How the data were processed

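ATAC-seq libraries of 2 vehicle and 2 octanoate samples were compared by the authors in 1 deposited table. Groups were taken from sample titles. The submitters' processing notes name Trim Galore, cutadapt, FastQC, Bowtie2, Picard, MACS2, featureCounts, DESeq2, bedtools 2.29.1 and build hg38, with no role or parameter; whether reads were shifted to the Tn5 cut is not given in the sources used here. Per the file headers, the deposited signal is a mean of normalized reads across all 4 libraries. The log2 fold change and its standard error are as deposited, and the deposited score is the Wald statistic, equal to their ratio to within 2.31e-14. The deposited p-value is its two-sided normal p. The deposited adjusted p equalled Benjamini-Hochberg values for the 11185 regions whose mean reached 63.8, and was listed as 1 in the other 114801, treated here as not tested. The tests of the groups are the authors', except that p-values were also recomputed here from the deposited fold changes and errors after subtracting the median of tested regions. Depth per library is unknown.

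Region starts in the table count from 0 and are given from 1. Genes and spans came from RefSeq GRCh38.p14. Exons, introns and UTRs were not analysed here. Group values called implied are the deposited mean times 2, split by the deposited fold change, with libraries weighted equally; they are not measured group means. Region assignment and adjustment were tested on simulated data. Python 3.11.15, pandas 2.3.3, numpy 2.4.6 and scipy 1.17.1 were used. Members and lists were chosen with earlier results of these data known. Named were the 5 tested regions with the smallest p, the 5 deepest regions, the 3 highest and 3 lowest genes by median among those with at least 5 regions, the 5 genes with most regions and the 5 with most tested regions, lysyl oxidase genes, member pairs sharing regions, genes with a tested region at a listed start, and the region with the smallest p of each group of collagen-processing genes. Other genes named were chosen after their values were seen.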

Additional observations from a re-analysis of the deposited data

How the results depend on the processing

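The count of 0 member regions past the threshold stayed 0 in all 5 alternatives: adjustment over all regions, adjusted p under 0.1 or 0.01, centring on the tested median, and gene spans without the extension (22 tested regions). The median log2 fold change of 0.19 became -0.043 when the median of all nuclear regions was subtracted, since that median exceeds it, and 0.047 for regions within 1 kb of a start; the cause of the latter was not tested. It was 0.19 in unextended spans, in tested regions and as the median of gene medians, 0.18 at or above the median mean signal, 0.16 beyond 5 Mb from the outermost region and 0.095 for the deepest region of each gene. Alternatives added after seeing the data gave 0.15 without COL22A1 and 0.19 without regions at ends of other genes. With the deepest region of each gene alone, class medians became -0.040 (basement membrane, against 0.26), 0.097 (fibril surface, against 0.22), 0.47 (beaded filament, against 0.25), 0.13 (transmembrane, against 0.27) and 0.024 (the pair COL26A1 and COL28A1, against 0.29); these rest on 2 to 10 regions, and the cause was not tested. The median of 0.37 for tested regions away from gene ends became 0.17 without COL4A2 and COL22A1, an alternative also added after seeing the data. Changes under 0.1 on the log2 scale were counted as the same. No paired analysis was possible because of the 0 columns per library, and no replicate could be left out for that reason.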
